A study of Mus musculus with 3 samples.

Results

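Linc-RAM knockdown was compared with its empty vector control in differentiating C2C12 cells, a mouse myoblast line that leaves the cell cycle and fuses into myotubes when serum is lowered. The knockdown line was made with a lentivirus that encodes a hairpin RNA targeting Linc-RAM (sh-Linc-RAM), and the control line carried the virus with no insert. Both were selected with blasticidin, grown in 10% FBS, moved to medium with 2% HS near confluence and harvested for polyA RNA at 12 h of differentiation. A 3rd library, from a line overexpressing Linc-RAM, belongs to the same series and is used here only in the filter on low values and in a few values set side by side. Several genes named below differed from the control in the same direction there, which is given for some of them only. Of 22068 genes listed, 10172 had an average of 1 or more RPKM (read counts scaled to transcript length and to library size) over the 3 libraries, and 10165 of these had a value above 0 in the control and were compared. Genes named below that fall outside the stated naming rule, mostly relatives of genes that passed, were picked after their values were seen. The control virus held no non-targeting hairpin, so effects of carrying any hairpin cannot be told apart from those of losing Linc-RAM. Each condition is 1 stable line and 1 library, so no difference below has a replicate check, and every interval given covers counting error only.

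Linc-RAM is a transcript of skeletal muscle that sits at the locus of the micropeptide myoregulin, which restrains the calcium pump of the sarcoplasmic reticulum. As an RNA it has been described as a partner of MyoD, the basic helix-loop-helix factor that switches on the muscle programme by binding E-boxes. Early in differentiation myoblasts are still leaving the cell cycle, and genes of the contractile apparatus are only beginning to be transcribed.

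Hairpins against 2 sites of Linc-RAM were designed, and the labels do not say which of them the sequenced line carried. Both sites are printed to show which part of the transcript the knockdown addresses, with the sequence of the RNA strand in lower case and no base singled out by capitals. The first lies at chr10:69682261-69682281 of mm9 on the forward strand, in exon 3 of 3, with all 21 bases in the annotated coding sequence. The second lies at chr10:69682384-69682404 in the same exon, with 1 base in the stop codon and the rest in the 3′ untranslated region.
first site: ggtactgatctctactacttc
second site: gcaacctgactttctttactc
The gene itself, 2310015B20Rik (ENSMUSG00000019933), was listed at 0 RPKM in both libraries, so the depth of the knockdown could not be read from these data. Of the nearest measured genes upstream of the locus, Ccdc6 was at 13.8 RPKM in the control and 16.4 RPKM with knockdown (ratio 1.19, 95% interval 0.991 to 1.43), and Ank3 stood at 0.620 and 1.096 RPKM (ratio 1.77, 0.985 to 3.11). Neither interval excluded 1.

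Read totals recovered from the RPKM values were 5130481 for the control and 1878146 for the knockdown library, 36.6% of the control. The median gene compared had 88 control reads and 32 knockdown reads. Myoblast identity was visible in both libraries, with the intermediate filament gene Des at 291 and 145 RPKM, the myogenic factor gene Myf5 at 11.7 and 10.5 RPKM and the muscle cadherin gene Cdh15 at 22.6 and 10.9 RPKM in control and knockdown. None of 10 endothelial markers reached the filter, and of 10 macrophage and leukocyte markers 7 were listed at 0 in both libraries, Ptprc, Lyz2 and Itgam among them. The 2 leukocyte markers that passed the filter both lay above the control, with summed levels of 4.29 and 5.91 RPKM and counting intervals that included 1.

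Il1rn, the antagonist of the interleukin 1 receptor, and Ccnd2, the gene of cyclin D2, were among the deepest losses with knockdown. Ccnd2 was at 6.62 RPKM in the control and 0.185 RPKM with knockdown, from 196 and 2 reads, a ratio of 0.0279 (95% interval 0.00335 to 0.102). Il1rn was at 12.4 and 0.594 RPKM, from 171 and 3 reads. One of the largest gains was that of Fmo1, a flavin monooxygenase, at 2.09 RPKM in the control and 38.5 RPKM with knockdown, from 25 and 168 reads. Over all genes compared, 344 (3.38%) were at least 2-fold higher with knockdown and 426 (4.19%) at least 2-fold lower. The 2-fold change with a 95% counting interval that excluded 1 was reached by 220 genes above the control (2.16%) and 232 below it (2.28%), and higher and lower are used below in that sense. At least 4-fold in that sense were 27 higher and 46 lower genes. The median log2 ratio was −0.02, with the middle of the distribution between −0.32 and 0.29. Of 106 genes of the lists below that were called with reads in both libraries, 15 stood short of 2-fold once the trend with GC content was subtracted, namely Cdh15, Cebpa, Col4a1, Des, Etv4, Fads3, Gpr124, Hspa1a, Mcm5, Pfkl, Pgls, Phgdh, Sdf2l1, Suclg2 and Tnc. Of these, Des, Pgls and Tnc did so also with median scaling, and Fads3 and Phgdh joined them with upper quartile scaling. This check covered the 2-fold limit and not the interval. Some intervals ended close to 1, such as those of Atp5o (0.169 to 0.997) and Osr1 (0.0589 to 0.986). An interval that excluded 1 at any fold was found for 19.4% of genes.

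The 15 highest and 15 lowest ratios among genes averaging 5 RPKM or more covered unrelated functions. Among the high ones were Daam2, a formin of Wnt and actin signalling (2.42 and 16.6 RPKM), Capn6, a calpain without protease activity that binds microtubules (4.61 and 19.8 RPKM), Spock2, a proteoglycan of the extracellular matrix (3.49 and 13.6 RPKM), Serpinb1a, an inhibitor of leukocyte elastase (9.45 and 35.0 RPKM), and Slc1a3, a glutamate transporter (3.57 and 11.8 RPKM). Among the low ones were S1pr3, a receptor of sphingosine 1-phosphate (9.56 and 1.42 RPKM), Hist1h2bc, a histone H2B gene (20.9 and 4.39 RPKM), Blvrb, a biliverdin reductase (11.7 and 2.46 RPKM), Tmem176b (21.03 and 5.2 RPKM) and Casp6, an apoptotic protease (8.57 and 2.20 RPKM). Rmrp, the RNA of the ribonuclease MRP, had the highest ratio of these, 32.8, but its interval ran from 4.85 to 1401 because it rested on 1 control read and 12 knockdown reads.

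**Figure D1:**
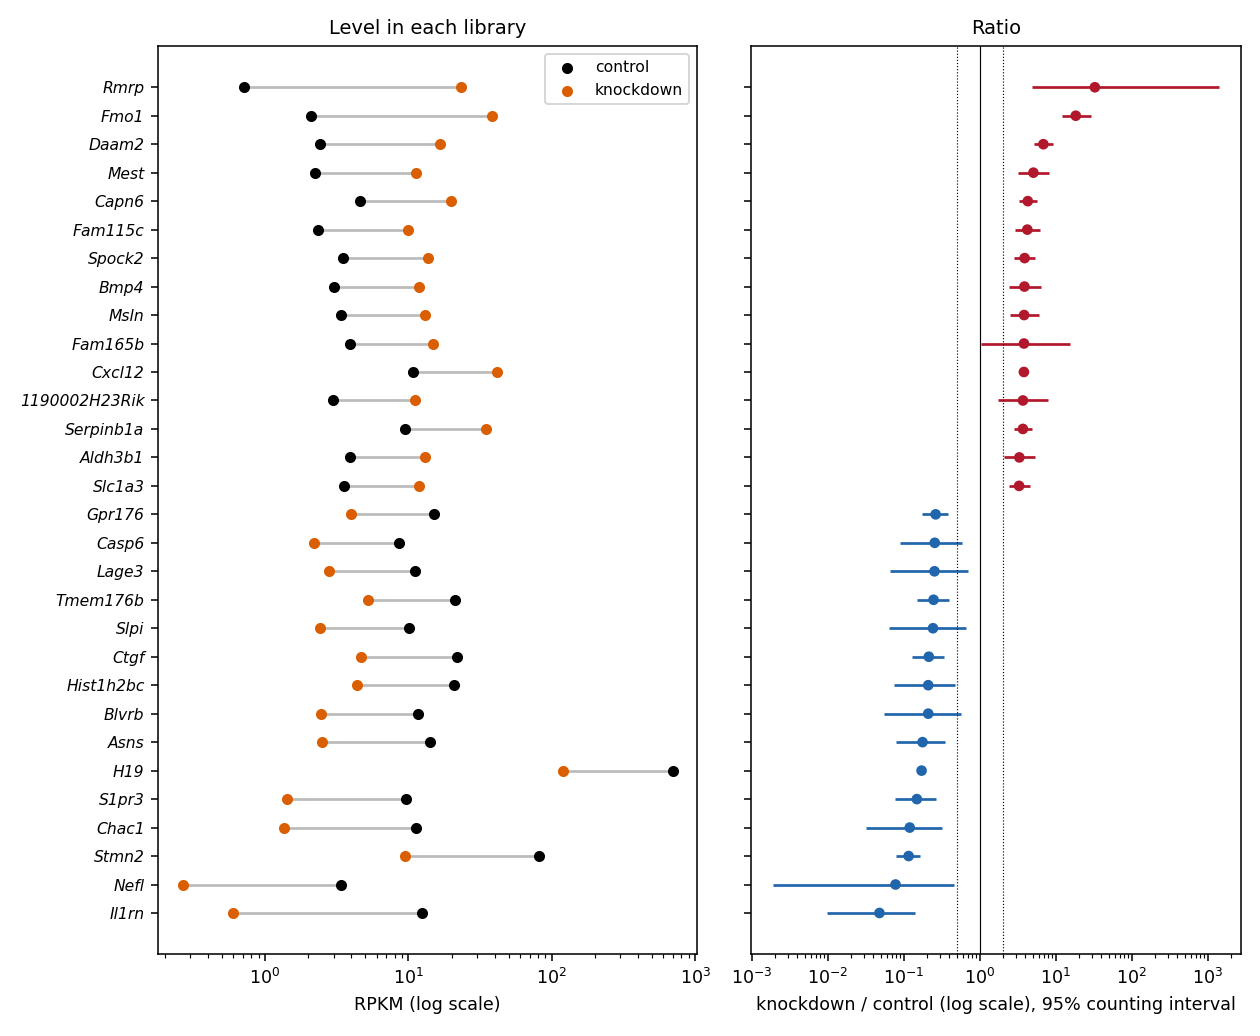
RPKM in the control and knockdown libraries on a log scale (left) and the knockdown to control ratio with its 95% counting interval on a log scale (right), for the 15 highest and 15 lowest ratios among genes averaging 5 RPKM or more with an interval that excludes 1. Fmo1 and H19 are far from the control with narrow intervals, whereas the interval of Rmrp spans 4.85 to 1401; dotted lines mark 2-fold.

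The amino acid response stood out among the metabolic lists. ATF4 is a transcription factor that is translated when amino acids run short or the endoplasmic reticulum is stressed, and it raises transporters, synthetic enzymes and feedback regulators. Of 25 target genes compared, 5 were lower, none was higher, and 18 lay below the control, with a median log2 ratio of −0.63 against −0.02 over all genes. Chac1, which degrades glutathione, was at 11.3 RPKM in the control and 1.36 RPKM with knockdown (ratio 0.120, 0.0320 to 0.318). Asns, which makes asparagine, was at 14.1 and 2.49 RPKM (ratio 0.177, 0.0792 to 0.346). Both lost most of their reads, 91 to 4 and 139 to 9. The pseudokinase gene Trib3, a feedback inhibitor of the response, was at 2.95 and 0.260 RPKM, from 31 reads and 1 read (ratio 0.0881, 0.00216 to 0.529). Atf5, a related transcription factor, was at 44.9 and 15.2 RPKM (ratio 0.339, 0.253 to 0.447), and Slc7a5, the large neutral amino acid transporter, completed the 5 at 7.93 and 2.88 RPKM. The mRNA of Atf4 itself was at 109 and 81.8 RPKM, a ratio of 0.751 (0.653 to 0.861) that did not reach 2-fold. Not every target was low: Slc38a2, another amino acid transporter, stood at 1.28 of the control (1.17 to 1.397), Ddit3, the gene of CHOP, at 1.06 and Ppp1r15a, which reverses the block of translation, at 1.56. In the overexpression library, read against the same control, the 5 lower targets were also below it. Chac1 and Asns were at 2.42 and 2.71 RPKM, Trib3 at 0.926 RPKM, Atf5 at 17.2 RPKM and Slc7a5 at 4.46 RPKM.

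The amino acid response element was searched as TGATGNAA on both strands between 250 bases before and 50 bases after the start. It was held by 3.97% of 32851 RefSeq promoters counted singly. Genes, in contrast, were counted if any of their promoters held it. Of the 22 ATF4 targets that had a promoter in the set, 7 held the element. Of 163 lower genes with a promoter, 8 (4.91%) held it, as did 5 of 171 higher genes (2.92%) and 2.44% of all 8146 genes compared that had one. The 8 were Aars, Asns, Chac1, Gadd45g, Klhl13, Orc2, Trib3 and Vgll3, of which Asns, Chac1 and Trib3 are also on the ATF4 target list. The 250 bases before the start of Chac1 and of Asns are shown because they were the targets among the 15 lowest ratios. Capitals mark the match, which begins 193 bases before the start in Chac1 (chr2:119350992-119351241, forward strand of GRCm38.p6) and 23 bases before it in Asns (chr6:7693210-7693459, reverse strand).
Chac1: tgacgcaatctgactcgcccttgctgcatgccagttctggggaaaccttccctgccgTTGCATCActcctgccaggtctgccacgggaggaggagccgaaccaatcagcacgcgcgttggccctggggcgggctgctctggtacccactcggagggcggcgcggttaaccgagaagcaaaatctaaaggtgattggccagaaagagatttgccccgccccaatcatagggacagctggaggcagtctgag
Asns: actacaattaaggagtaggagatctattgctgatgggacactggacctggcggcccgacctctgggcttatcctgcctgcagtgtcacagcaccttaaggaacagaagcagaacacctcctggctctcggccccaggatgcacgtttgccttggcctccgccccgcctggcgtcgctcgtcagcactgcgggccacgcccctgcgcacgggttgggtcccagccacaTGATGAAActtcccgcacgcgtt
A match describes the letters of the window and not binding.

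Several enzymes of serine synthesis and of the folate one-carbon cycle were lower as well. These pathways make serine and glycine and supply methyl groups and formyl units for nucleotides. Of 15 genes compared, 5 were lower and 12 lay below the control, and none was higher. Their median was −0.53. Both hydroxymethyltransferases were among them, the cytosolic Shmt1 at 1.89 and 0.258 RPKM (20 reads and 1 read) and the mitochondrial Shmt2 at 11.5 and 4.90 RPKM (ratio 0.425, 0.255 to 0.676). Aldh1l2, the mitochondrial formyltetrahydrofolate dehydrogenase, was at 7.66 and 2.03 RPKM (ratio 0.265, 0.165 to 0.407), and Mthfd2, a mitochondrial folate dehydrogenase, at 6.40 and 1.54 RPKM from 34 and 3 reads. Phgdh, the first enzyme of serine synthesis, was the 5th, at 10.9 and 5.41 RPKM (ratio 0.494, 0.286 to 0.811). Psat1, the most abundant member, was at 39.2 and 24.3 RPKM, short of 2-fold, and Tyms, Psph and Mtr stood above the control at ratios of 1.34, 1.16 and 1.09 with intervals that included 1.

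Glycolysis genes lay below the control over most of the pathway. Of 22 members compared, 18 were below and 4 above, the median log2 ratio was −0.44, and 2 passed the 2-fold criterion. Hk2, the hexokinase that commits glucose to the pathway, was at 6.26 and 2.13 RPKM (ratio 0.340, 0.207 to 0.530), and the phosphofructokinase gene Pfkl was at 18.4 and 8.59 RPKM (ratio 0.468, 0.350 to 0.617). Between them and the end of the pathway, several abundant enzymes had ratios well within 2-fold with narrow intervals. Aldoa was at 302 and 191 RPKM (ratio 0.632, 0.580 to 0.689), Tpi1 at 207 and 135 RPKM, Pgam1 at 228 and 149 RPKM, and Ldha, which makes lactate, at 295 and 162 RPKM (ratio 0.549, 0.501 to 0.600). Pkm2, the most abundant, was at 502 and 442 RPKM (ratio 0.879, 0.834 to 0.927). Hk1 and Gapdh were at ratios of 1.01 and 1.03. Summed over the list, glycolysis RPKM were 1926 in the control and 1382 with knockdown.

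The lists that branch from glycolysis were nearer to the control. In the pentose phosphate pathway, 2 of 9 genes were lower, Taldo1 (13.7 and 6.26 RPKM) and Pgls (25.4 and 12.7 RPKM), while Pgd, in the oxidative arm, was at a ratio of 1.08. The tricarboxylic acid cycle had 12 members on each side of the control and a median of −0.02, with 1 of 24 higher, the succinate ligase subunit gene Suclg2 (3.68 and 7.94 RPKM, ratio 2.16, 1.34 to 3.47). Of 48 subunits of oxidative phosphorylation, 32 lay below the control, with a median of −0.16. Only 1 was lower, Atp5o (10.9 and 4.83 RPKM, ratio 0.445, 0.169 to 0.997), with an interval that ended close to 1. Acadm, which oxidises medium-chain fatty acids, was higher at 16.2 and 32.6 RPKM (ratio 2.02, 1.57 to 2.59), and 15 of 21 genes of fatty acid oxidation lay above the control with a median of 0.18. In fatty acid synthesis the balance was the other way, with 14 of 17 below, a median of −0.24 and 1 lower gene, the desaturase-like Fads3 (25.5 and 12.5 RPKM). None of 23 cholesterol synthesis genes passed in either direction, 17 lay below the control and the median was −0.15.

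In other pathways only single enzymes passed. Gpx3, a secreted glutathione peroxidase, was at 9.98 and 27.3 RPKM (ratio 2.73, 1.97 to 3.79) as the only 1 of 24 antioxidant genes to pass. Mgst1, a microsomal glutathione transferase, was at 7.65 and 2.82 RPKM, so that the list of enzymes handling foreign compounds had 1 higher gene, Fmo1, and 1 lower among 21. Alox5ap, which presents arachidonic acid to 5-lipoxygenase, was higher (5.25 and 14.96 RPKM, ratio 2.85, 1.54 to 5.28), while Ptges2, a prostaglandin E synthase, was lower (6.09 and 1.91 RPKM, ratio 0.313, 0.121 to 0.686). Their list of 17 genes had a median of −0.36, with 8 above and 9 below the control. Over members averaging 5 RPKM or more the median was 0.22. Ass1, the argininosuccinate synthase, was the only 1 of 15 genes of polyamine, proline and urea metabolism to pass, at 5.02 and 1.63 RPKM. In all, 5 of the 280 metabolic genes compared were higher (1.79%) and 19 lower (6.79%), beside 2.16% and 2.28% of all genes.

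**Figure D2:**
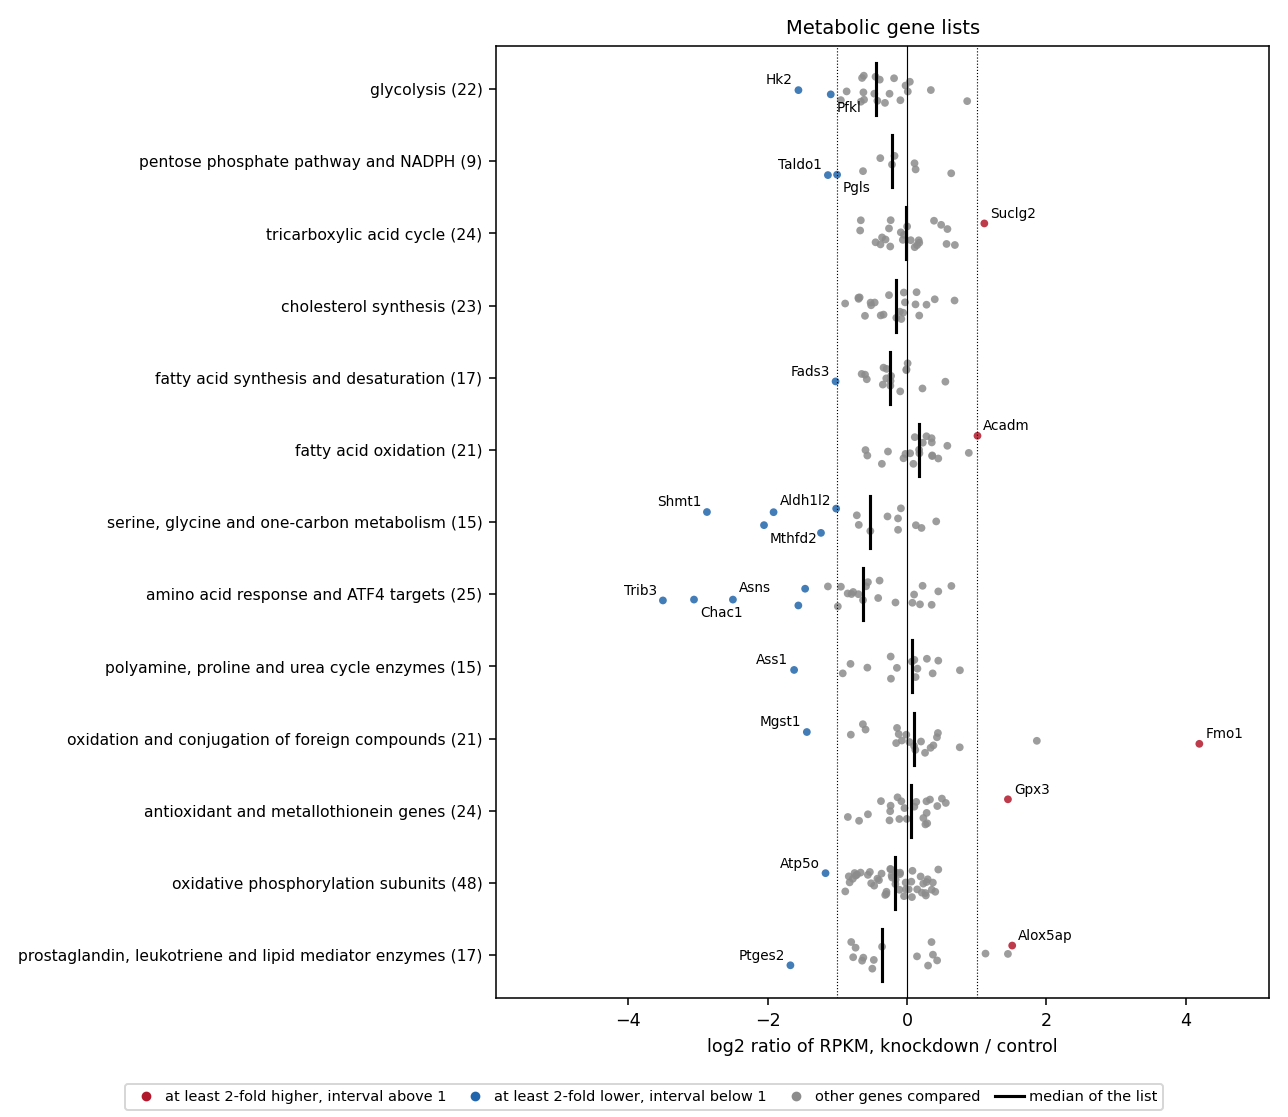
Log2 ratio of RPKM, knockdown over control, for the members of 13 metabolic lists (number compared in brackets), with dotted lines at 2-fold. The medians of the amino acid response (−0.63), one-carbon (−0.53) and glycolysis (−0.44) lists lie left of 0, that of fatty acid oxidation at 0.18, and Fmo1 is alone on the far right.

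Secreted factors moved in both directions. Of 195 genes compared in 9 lists, 24 were higher (12.3%) and 17 lower (8.72%), beside 2.16% and 2.28% of all genes. Their median log2 ratio was −0.10. Some higher genes, such as Ptn at 0.289 RPKM and Ntn4 at 0.162 RPKM in the control, passed the filter through the other libraries. Efna5 (0.630 RPKM), Angpt2 (0.945 RPKM) and Dkk3 (0.987 RPKM) were also below 1 RPKM in the control. In Ptn and Angpt2 only the knockdown value exceeded 1 RPKM, so the value that called them higher also kept them. The lists were chosen with earlier results known, so the shares are descriptive and not a test of secreted genes. Among cytokines and chemokines, Cxcl12, a chemoattractant made by stromal and muscle progenitor cells, was at 10.8 RPKM in the control and 41.1 RPKM with knockdown (ratio 3.81, 3.35 to 4.35), with 396 and 553 reads despite the shallower library. Il18, an interleukin 1 family cytokine, was at 1.13 and 5.53 RPKM from 5 and 9 reads. Lower were Il1rn, Ccl9 (3.30 and 0.531 RPKM, 51 and 3 reads), the monocyte attractant gene Ccl2 (60.7 and 17.2 RPKM, ratio 0.283, 0.181 to 0.425) and the alarmin gene Il33 (3.59 and 1.43 RPKM). The most abundant member, osteopontin (Spp1), was at 326 and 208 RPKM, a ratio of 0.638 (0.584 to 0.695), while Csf1 was at a ratio of 0.995 (0.858 to 1.15).

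Within the Wnt family, ligands of the same subgroup went opposite ways. Wnt10a was lower, at 40.8 and 15.5 RPKM (ratio 0.380, 0.283 to 0.502), and Wnt10b, which holds back adipogenic fate in mesenchymal cells, was higher, at 7.002 and 16.3 RPKM (ratio 2.32, 1.66 to 3.25). In the control Wnt10a exceeded Wnt10b in RPKM, and with knockdown the levels were nearly equal. The secreted modulator genes Sfrp2 (2.05 and 7.45 RPKM, 21 and 28 reads) and Dkk3 (0.987 and 2.85 RPKM, 17 and 18 reads) were higher too. Of 29 Wnt ligands and modulators listed, only 6 passed the filter on low values, so the list's median of 1.04 rests on few genes.

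Bmp4, a ligand that holds myoblasts back from differentiation, was higher at 3.03 and 11.8 RPKM (ratio 3.88, 2.39 to 6.35), the only 1 of 19 TGF-beta and BMP family genes to pass. Tgfb2 came close with 4.87 and 9.69 RPKM (ratio 1.99, 1.49 to 2.65). Ctgf, a matricellular protein induced by TGF-beta and by YAP, was lower at 21.7 and 4.65 RPKM (ratio 0.214, 0.130 to 0.334). Its relative Cyr61, also induced by YAP, was at 49.0 and 30.7 RPKM, short of 2-fold. Among other growth factors, Kitl, the ligand of the KIT receptor, was higher (5.47 and 13.97 RPKM, ratio 2.55, 2.02 to 3.23), and so were the heparin-binding factor Ptn, from 3 and 9 reads (ratio 8.20, 2.05 to 47.1), and Angpt2, from 12 reads in each library. Vegfa stood at 0.883 of the control (0.763 to 1.02). Of 8 IGF-axis genes, Igfbp3 (1.68 and 4.15 RPKM) and the protease gene Htra3 (3.34 and 8.81 RPKM) were higher, whereas Igfbp2, the most abundant binding protein, was at 117 and 61.2 RPKM (ratio 0.521, 0.435 to 0.622) and Igfbp5 at 70.3 and 104 RPKM (ratio 1.48, 1.35 to 1.63), both short of 2-fold.

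Guidance molecules, best known for steering axons and vessels, had 5 higher and 2 lower genes among 22. Sema3e (3.58 and 11.6 RPKM, ratio 3.25, 2.11 to 5.02), Sema3d (2.99 and 8.98 RPKM, ratio 3.005, 2.27 to 3.98) and Sema5a (5.59 and 11.8 RPKM, ratio 2.11, 1.78 to 2.51) were higher. Efna5 and Ntn4 were higher from low levels, with 17 and 19 reads and with 2 and 6 reads. Lower were Sema6a, a membrane-bound semaphorin (2.21 and 0.541 RPKM, ratio 0.245, 0.0954 to 0.529), and Slit2, a ligand of ROBO receptors (5.27 and 2.20 RPKM, ratio 0.417, 0.280 to 0.604). Secreted class 3 semaphorins were not uniform, since Sema3b was at a ratio of 1.26 and Sema3c at 0.797, both with intervals that included 1.

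Of 39 matrix genes compared, 3 were lower and 4 higher, and the lower ones included a pair of collagen crosslinking enzymes. Lox, the lysyl oxidase, was at 227 and 102 RPKM (ratio 0.449, 0.414 to 0.487), Loxl2 at 10.8 and 4.63 RPKM (ratio 0.428, 0.306 to 0.588) and Tnc at 79.6 and 39.7 RPKM (ratio 0.498, 0.453 to 0.547), which was 0.503 and short of 2-fold with median scaling. The crosslinking family was not uniform, as Loxl4 was at a ratio of 1.84 (1.27 to 2.66) and Loxl3 at 1.18. Higher were Prelp, a leucine-rich proteoglycan (3.19 and 9.46 RPKM, ratio 2.96, 2.05 to 4.29), Spon2 (2.00 and 5.47 RPKM), Npnt, an integrin ligand (5.08 and 11.6 RPKM) and Emilin1 (5.23 and 10.6 RPKM). Bgn, the small proteoglycan biglycan and the most abundant member, was at 698 and 511 RPKM (ratio 0.732, 0.696 to 0.771). Fn1 was at 0.878 of the control and Sparc at 0.9997. Of 16 collagens, Col4a1 of the basement membrane was lower (12.9 and 6.20 RPKM), with its partner Col4a2 at 16.4 and 8.45 RPKM (ratio 0.514, 0.412 to 0.636), and Col8a2 was higher (2.79 and 6.15 RPKM).

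Secreted proteases and their inhibitors had a median log2 ratio of −0.38, and of −0.17 over members averaging 5 RPKM or more, with 26 of 36 below the control, 5 lower and 3 higher. Among the lower genes were protease inhibitors and a complement gene, namely Serpina3g (5.25 and 0.531 RPKM, 27 reads and 1 read), Serping1, the C1 inhibitor (2.999 and 0.585 RPKM, 28 and 2 reads), Slpi, an inhibitor of elastase (10.0 and 2.43 RPKM, 45 and 4 reads), and complement C3 (7.02 and 3.01 RPKM, ratio 0.428, 0.279 to 0.636). Higher were the gelatinase gene Mmp2 (18.3 and 48.0 RPKM, ratio 2.62, 2.21 to 3.10), its relative Mmp23 (1.495 and 5.57 RPKM) and the inhibitor gene Timp3 (16.5 and 34.2 RPKM, ratio 2.08, 1.78 to 2.42). Mmp14, which activates MMP2, was at 97.0 and 115 RPKM (ratio 1.19, 1.07 to 1.31).

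**Figure D3:**
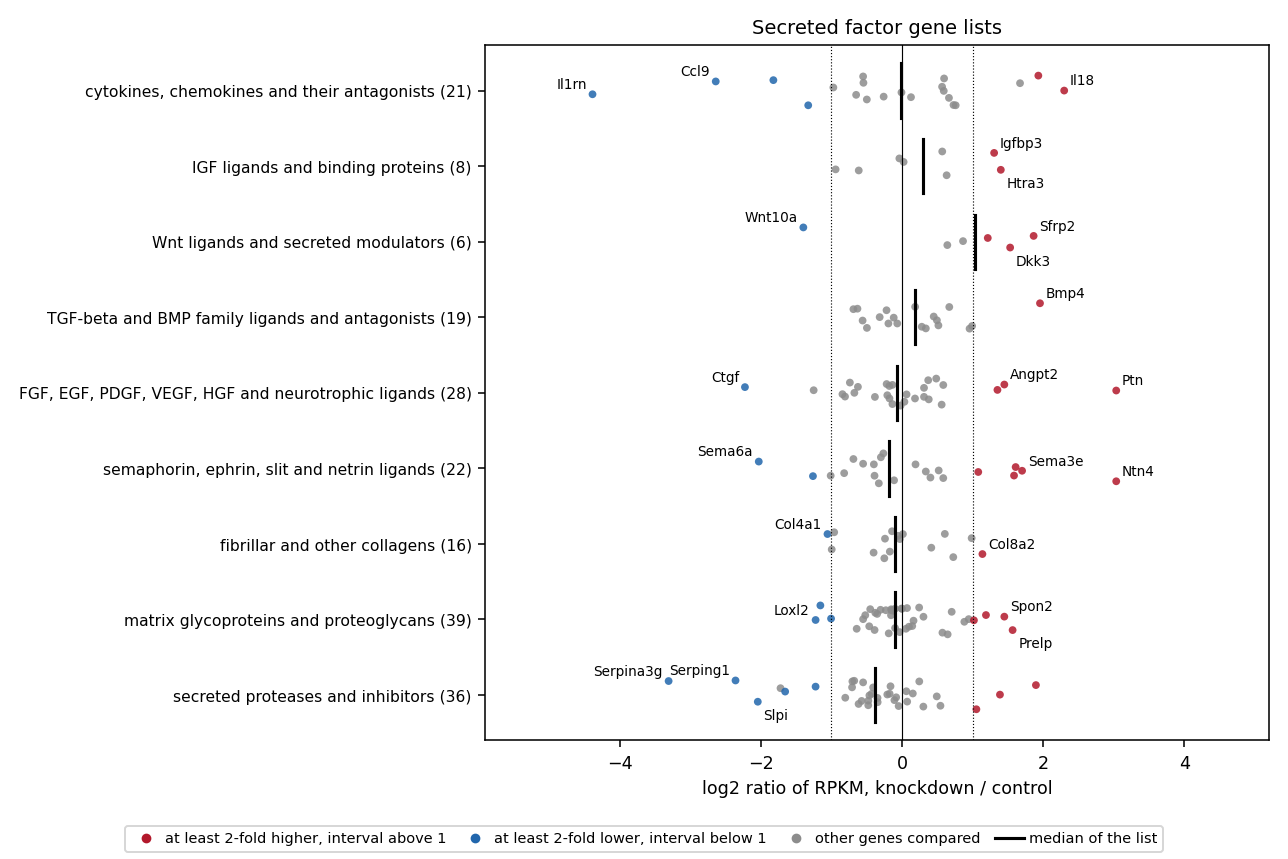
Log2 ratio of RPKM, knockdown over control, for the members of 9 lists of secreted factors (number compared in brackets), with dotted lines at 2-fold. Coloured points stand on both sides of 0 in 7 of the lists, with Il1rn furthest left and Ptn and Ntn4, from 3 and 2 control reads, furthest right.

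Transcription factors were mostly close to the control. Of 227 compared in 8 lists, 3 were higher (1.32%) and 11 lower (4.85%), beside 2.16% and 2.28% of all genes. Their median log2 ratio was −0.04. None of 11 myogenic regulatory factors and their partners, such as MEF2, passed in either direction and their median was −0.01, which was 0.33 over members averaging 5 RPKM or more and 0.18 with the GC trend subtracted. Myod1 had the lowest ratio of the 11, at 0.584 of the control (log2 ratio −0.78). Myog stood at 0.911, with an interval from 0.397 to 1.91 that rested on 10 knockdown reads.

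Pax7, the factor that marks satellite cells, was higher from a control level near 0, at 0.228 and 5.36 RPKM from 5 and 43 reads. It was at 2.78 RPKM in the overexpression library, so its control value was the lowest of the 3. Among homeobox genes, Hoxa3 was also higher (1.69 and 3.56 RPKM, ratio 2.11, 1.05 to 4.16), and 19 of 33 lay above the control with a median of 0.31, which was −0.14 over members averaging 5 RPKM or more. Hoxc10, the most abundant Hox gene, was at 25.6 and 42.6 RPKM (ratio 1.67, 1.35 to 2.04), whereas Prrx2 was at 30.04 and 15.1 RPKM (ratio 0.502, 0.333 to 0.736). Arnt2, a partner of PAS-domain factors, was the third higher factor, at 1.17 and 2.84 RPKM from 18 and 16 reads.

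The lower factors came from several families. Egr2, an immediate early zinc finger factor, was at 10.2 and 3.23 RPKM (ratio 0.317, 0.183 to 0.518), with Egr1 at 47.8 and 34.0 RPKM (ratio 0.711, 0.604 to 0.833) and Egr3 at a ratio of 0.575 short of the criterion. Osr1 (2.62 and 0.794 RPKM, 27 and 3 reads) and Klf7 (6.87 and 2.79 RPKM, 47 and 7 reads) were lower as well. Foxs1, a forkhead factor of perivascular cells, was at 16.9 and 5.69 RPKM (ratio 0.335, 0.178 to 0.586), followed by Foxq1 (4.38 and 1.90 RPKM) and the ETS factor Etv4 (4.76 and 2.28 RPKM). Nr2f2, the orphan receptor COUP-TFII, was at 6.44 and 2.41 RPKM (ratio 0.373, 0.228 to 0.585). Its paralog Nr2f1 stood at 8.10 and 5.26 RPKM with an interval of 0.398 to 1.02. Besides Atf5, the other bZIP factor below the criterion was Cebpa, of adipocyte and myeloid differentiation (6.57 and 2.82 RPKM). Hey1, a target of Notch (24 and 2 reads), and Irf9, which carries the interferon signal to the nucleus (40 and 6 reads), were lower on few reads.

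**Figure D4:**
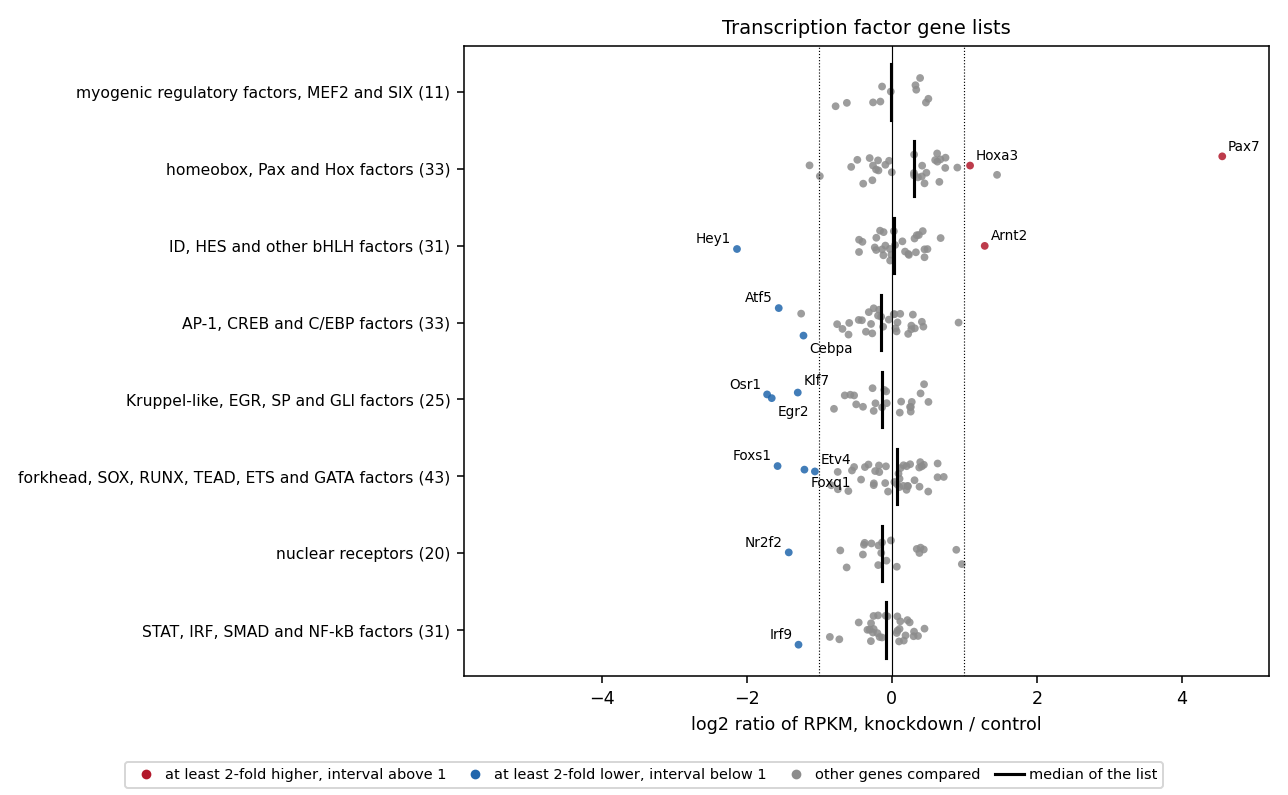
Log2 ratio of RPKM, knockdown over control, for the members of 8 lists of transcription factors (number compared in brackets), with dotted lines at 2-fold. Most points lie between the dotted lines, the 11 lower factors lie left of them and Pax7 is furthest right.

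Cell cycle genes differed by phase, mostly within 2-fold. Genes of mitosis and cytokinesis were above the control in 35 of 40 cases, with a median log2 ratio of 0.23 and none past the 2-fold criterion. Genes of DNA replication and licensing were below it in 32 of 42, with a median of −0.33 and 2 lower. Over all genes compared, 4920 of 10165 lay above the control. With the GC trend subtracted, 30 of the 40 mitotic genes lay above it and 34 of the 42 replication genes below it. Nusap1, a spindle protein, had the highest mitotic ratio, 1.93 (1.34 to 2.76), at 5.14 and 9.89 RPKM, with Ccnb2 at 1.62 and Cenpf at 1.402 (1.22 to 1.603), while Mki67, the most abundant, was at 1.03. The 2 lower replication genes were Orc2, a subunit of the origin recognition complex (4.34 and 1.74 RPKM, ratio 0.401, 0.192 to 0.759), and Mcm5 of the replicative helicase (7.29 and 3.58 RPKM, ratio 0.491, 0.300 to 0.769). Of the other helicase subunits, Mcm3 was at 0.602, Mcm6 at 0.625, Mcm4 at 0.683, Mcm2 at 0.726 and Mcm7 at 0.911. The loss of Ccnd2 reads was not shared by its family, as Ccnd1 was at 19 and 18.4 RPKM (ratio 0.967, 0.786 to 1.18) and Ccnd3 at 25.1 and 19.8 RPKM. Cdkn1c, the imprinted inhibitor p57, was higher at 0.703 and 3.84 RPKM, from 7 and 14 reads (ratio 5.46, 2.06 to 15.99), while Cdkn1a, the gene of p21, was at 61.3 and 38.9 RPKM (ratio 0.635, 0.527 to 0.760).

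Of 9 markers of smooth muscle, some of which early myoblasts also express, 4 were lower and 1 was higher. Actg2, the enteric smooth muscle actin, was at 141 and 45.8 RPKM (ratio 0.324, 0.264 to 0.394), the actin-binding Tagln at 182 and 74.2 RPKM (ratio 0.408, 0.353 to 0.471), and Cnn1, calponin, at 11.9 and 4.56 RPKM. Acta2 was at 985 and 544 RPKM (ratio 0.553, 0.525 to 0.581), short of 2-fold. Des was the 4th lower marker at a ratio of 0.499, which was 0.504 with median scaling, 0.508 with upper quartile scaling and 0.548 with the GC trend subtracted, so that its call, counted also among sarcomere genes and myoblast markers, ended under each. The higher one was the kinase gene Mylk (1.72 and 6.41 RPKM, ratio 3.72, 2.70 to 5.15), and the summed level of the list was 1638 RPKM in the control and 845 RPKM with knockdown. In the overexpression library Actg2, Tagln, Cnn1 and Acta2 were lower still, at 29.6, 60.8, 2.63 and 373 RPKM. Des was at 386 RPKM and Mylk at 1.16 RPKM there. In these bulk samples fewer cells of a type and less RNA per cell cannot be told apart. Of 18 sarcomere genes compared, 13 lay below the control and 3 were lower, Des, the ubiquitin ligase gene Trim55 (3.82 and 1.19 RPKM, 35 and 4 reads) and the M-band gene Myom2, listed at 0 with knockdown against 23 control reads. Of 12 myoblast markers, Des and Cdh15 were lower, Pax7 was higher and 6 lay on each side of the control.

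Of 27 genes of microtubules and neurite growth, 3 were lower, the stathmin genes Stmn2 and Stmn4 and the neurofilament gene Nefl, and 2 were higher, Daam2 and Capn6, with a median of −0.08. Stmn2 was at 81.9 RPKM in the control and 9.51 RPKM with knockdown, from 800 and 34 reads, Nefl had 35 reads and 1 read, and Stmn4 was listed at 0 with knockdown against 16 control reads. The abundant tubulins were nearer to the control, with Tuba1a at 1307 and 967 RPKM (ratio 0.740, 0.701 to 0.781). Among neuronal and glial markers, 6 of 18 passed the filter, 2 of them lower, and the summed level was 120 RPKM in the control and 37.3 RPKM with knockdown, of which Stmn2 made up most in the control. The defining neuronal genes Snap25, Rbfox3 and Elavl4 and the glial genes Gfap and Sox10 were listed at 0 in both libraries.

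Imprinted genes of growth control went in both directions. H19, a long non-coding RNA that is abundant in myoblasts, was at 697 and 120 RPKM (ratio 0.172, 0.158 to 0.187), the largest fall in RPKM of any gene at −577 RPKM. Mest, which is expressed from the paternal allele, was at 2.22 and 11.3 RPKM (ratio 5.09), and Cdkn1c was higher as given above. The 14 members compared had 7 on each side of the control, and Peg3 and Gnas were at ratios of 1.08 and 0.965. Among G-protein receptors, S1pr3, the prostaglandin F receptor gene Ptgfr (2.16 and 0.965 RPKM) and Gpr124 (10.4 and 4.92 RPKM) were lower, the related S1pr1 stood at 0.576 of the control (0.378 to 0.853), and Lpar3, a receptor of lysophosphatidic acid, was higher from 7 and 9 reads. Fzd5, a receptor of Wnt ligands, was higher as well, at 1.55 and 3.23 RPKM from 55 and 42 reads.

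Ubiquitin sequences were among the largest rises in RPKM. Ubb was at 1545 RPKM in the control and 3328 RPKM with knockdown (ratio 2.15), and the ubiquitin pseudogene Gm1821 was at 942 and 2118 RPKM (ratio 2.25). Genes of this family repeat near-identical coding units and may share reads, so their separate values are uncertain. In the overexpression library Ubb was at 2889 RPKM. Proteasome subunits, which degrade ubiquitin-tagged proteins, had a median of −0.10, with Psma7 (22.1 and 7.25 RPKM, ratio 0.328, 0.164 to 0.598) and Psmb3 (17 control reads, listed at 0 with knockdown) lower among 34. Of the other abundant genes, Vim was at 1867 and 1383 RPKM (ratio 0.741, 0.717 to 0.766), Actb at 1387 and 1132 RPKM and Eef1a1 at 1531 and 1689 RPKM.

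Gene sets of basic cell functions were close to the control. Of 68 cytosolic ribosomal protein genes, none was higher or lower and the median log2 ratio was 0.03. Chaperones had a median of −0.08 with 1 lower gene, the inducible Hspa1a (15.1 and 6.66 RPKM, ratio 0.441, 0.299 to 0.632). Genes of folding and stress in the endoplasmic reticulum had a median of −0.14 and 1 lower gene, Sdf2l1 (11.6 and 5.29 RPKM), while the abundant Calr was at a ratio of 1.03. Among p53 targets Gadd45g was lower (31.9 and 13.3 RPKM, ratio 0.417, 0.267 to 0.627), and among interferon genes Parp14 was higher (1.13 and 2.72 RPKM). Of 25 genes listed at 0 with knockdown, 6 had an interval below 1, led by Ms4a4d, a membrane protein gene at 16.4 RPKM in the control from 41 reads.

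The ratios ran with base composition. Genes were split into 5 equal groups by the GC content of their longest coding transcript in GENCODE, which was found for 9963 of them (98.0%), and the median log2 ratio went from 0.19 in the group of lowest GC to −0.19 in that of highest GC. Over single genes the Spearman correlation was −0.26, a description across genes that share both libraries. With the running median over genes of like GC content subtracted, glycolysis genes had a median of −0.32 in place of −0.44, the amino acid response −0.59 in place of −0.63, one-carbon enzymes −0.47 in place of −0.53, replication genes −0.34 in place of −0.33 and mitotic genes 0.18 in place of 0.23. Of the list medians, 13 moved by 0.1 or more and 35 by less. The prostaglandin list went from −0.36 to −0.14, guidance molecules from −0.19 to −0.02 and cytokines from −0.01 to 0.17. The pentose phosphate list went from −0.22 to −0.09, and polyamine, proline and urea genes from 0.07 to −0.13. The number of control reads also mattered: of the 344 genes at least 2-fold higher, 109 had fewer than 10 control reads.

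**Figure D5:**
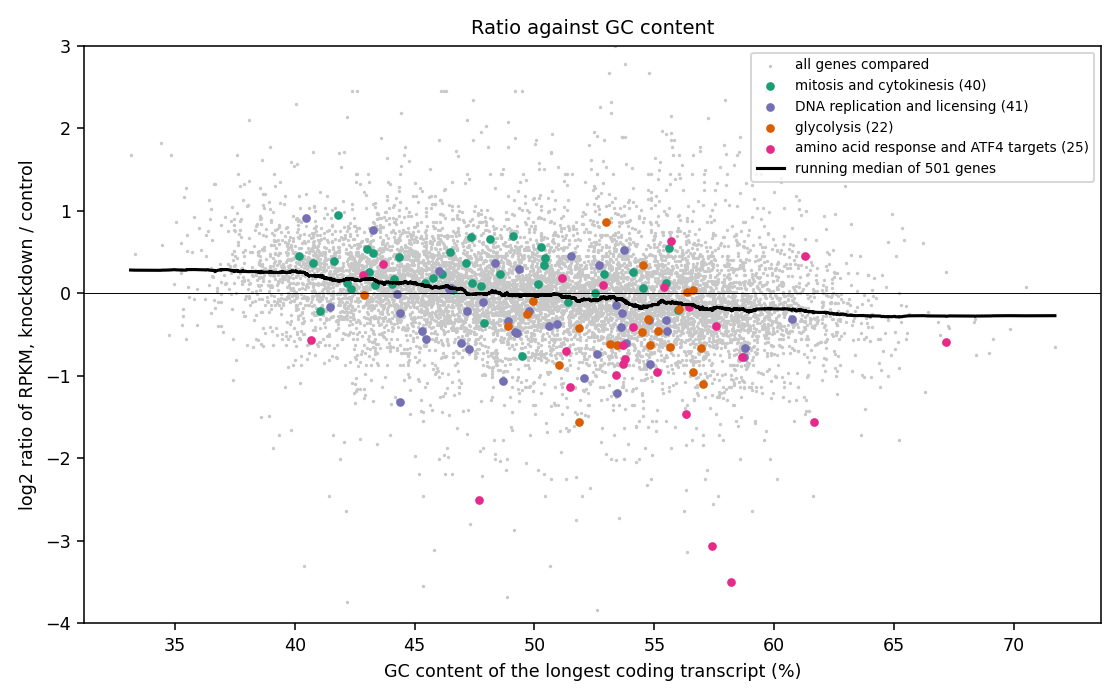
Log2 ratio of RPKM, knockdown over control, against the GC content of the longest coding transcript in percent, for 9941 genes with values above 0 in both libraries (8 lie beyond the axes), with 4 lists coloured. The running median (black line) falls from left to right, and most mitotic genes lie above it and most glycolysis and amino acid response genes below it.

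E-boxes, the sites of MyoD and other basic helix-loop-helix factors, were searched as CANNTG in the same promoter windows. They were held by 72.5% of higher and 73.0% of lower genes, beside 65.5% of all genes compared and 72.3% of all promoters counted singly. The form CAGCTG, which MyoD prefers, was held by 23.4% of higher genes, 23.3% of lower genes and 17.3% of all genes compared, with no direction favoured.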

How the data were processed

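RNA-seq of polyA RNA was analysed from 1 knockdown and 1 control library. The authors aligned the reads with TopHat, for which the submitters' processing notes name version 1.4.1 and the build mm9, took gene coverage with DEGSeq and deposited RPKM values. For the annotation, strand and multiply mapped reads, settings were not given in the sources used here, so overlapping or near-identical genes cannot be told apart.

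Ratios were RPKM with knockdown over RPKM in the control, without an added constant, for genes averaging 1 RPKM or more over the 3 libraries. Genes at 0 in the control (7) had no ratio and genes at 0 with knockdown (25) counted as lower. That filter includes the compared libraries, so it keeps low genes that are high in either. RPKM made from whole reads keep their read total. The total taken was the one with the largest number of matches of low genes to whole reads at GENCODE lengths. There were 703 matches from 2885 low genes in the control and 582 from 2104 with knockdown. Reads per gene then came from a GENCODE length (23.5% of genes) or the smallest whole length from 200 nt, so they are lower estimates. The 95% interval of a ratio is exact (Clopper-Pearson) and covers counting error between these libraries, not the conditions. No test of the conditions is possible with 1 library each. The steps were tested on simulated data with counting error only. There, read totals were recovered only where all lengths were GENCODE lengths, and the true totals were supplied where they were not. Software was scipy 1.17.1, pandas 2.3.3 and numpy 2.4.6 under Python 3.11.15, with matplotlib 3.10.9 for plots.

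The members and the 50 gene lists were chosen with earlier results of these data known. Genes named are the target, the 15 highest and 15 lowest ratios among genes averaging 5 RPKM or more with an interval excluding 1, up to 4 members per list with the largest ratio past the criterion and the most abundant member, the 10 most abundant genes, the 8 largest differences in RPKM each way, and up to 5 genes at 0 in either library. Genes outside this rule were named after their values were seen, and 4 genes are not reported here. Alternatives were other filters on low values, added constants, other scalings, fold and interval thresholds, leaving out genes at 0 and subtraction of the GC trend.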

Additional observations from a re-analysis of the deposited data

How the results depend on the processing

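The counts of genes depended on the filter and thresholds. At least 2-fold higher and lower were 344 and 426 genes, which became 903 and 1709 with no filter, 76 and 108 among genes averaging 5 RPKM or more, 123 and 174 with 1 RPKM added, and 1071 and 1232 at 1.5-fold. With the interval, 220 and 232 became 72 and 96 among genes averaging 5 RPKM or more, 144 and 130 with the stricter interval tried, and 516 and 586 at 1.5-fold. Within 1.5 times of the counts given were those with 0.1 RPKM added (310 and 390), with median scaling (355 and 406), with upper quartile scaling (361 and 396) and with the GC trend subtracted (333 and 356), the last chosen after seeing the data. Counts with the interval were 225 and 215 with median scaling, 233 and 203 with upper quartile scaling and 224 and 183 with the GC trend subtracted. Under each of these, higher genes outnumbered lower ones. Over alternatives, 243 list medians moved by less than 0.1 on the log2 scale, 39 by more and 3 of at least 0.1 in size changed sign, those among genes averaging 5 RPKM or more, where the prostaglandin list was at 0.22, the guidance list at 0.19 and the homeobox list at −0.14 (the cause was not tested). Of the ratios of named genes, 648 stayed within their counting interval and 18 did not, and no gene called higher or lower changed direction. With 1 RPKM added, the ratio of Pax7 was 5.18 and that of Ccnd2 0.155. No paired analysis was possible because each condition has 1 library, and for the same reason no replicate could be left out. Depth limits the values below about 10 reads most, which is where 109 of the 344 higher genes lay.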

Other observations

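Median log2 ratios differed between chromosomes. They ran from −0.21 on chromosome 19 and −0.19 on chromosome 7 to 0.13 on chromosome 10, where Linc-RAM lies, and 0.17 on chromosome 9, with 355, 720, 492 and 560 genes compared. With the GC trend subtracted these medians were −0.14, −0.09, 0.16 and 0.16. Over all genes 2.16% were higher and 2.28% lower. The largest higher share among the autosomes and X was on chromosome 10, with 22 of 492 genes higher (4.47%) and 12 lower (2.44%). The largest lower share was on chromosome 6, with 17 of 472 genes lower (3.60%) and 10 higher (2.12%). On chromosome 5, 17 of 629 genes were higher (2.70%) and 3 lower (0.477%). On chromosome 2, 7 of 801 were higher (0.874%) and 25 lower (3.12%).

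Genes listed at 0 in the control but not with knockdown were few and shallow. Of the 7, Cldn22, a claudin of tight junctions, had 4 knockdown reads at 2.14 RPKM, Mgst2, a microsomal glutathione transferase, had 3 reads at 2.71 RPKM, and Ndufa12, a subunit of respiratory complex I, had 2 reads at 1.90 RPKM. Histone genes with few reads were at 0 the other way, with Hist2h3b at 9 control reads and none with knockdown.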
